A study of Mus musculus with 32 samples.

Results

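Wild-type bone marrow-derived macrophages given dexamethasone for 24 h were compared with the same kind of cells left without it. The 2 groups were taken by their sample labels, 4 libraries each, and make up 8 of the 32 messenger RNA libraries of the study. The study crossed 2 genotypes, wild type and knockout of Acod1 (also called Irg1, the enzyme that makes itaconate), with 4 treatments: none, dexamethasone, bacterial lipopolysaccharide (LPS) and both. Its design text gives the anti-inflammatory action of glucocorticoids as the question, and the comparison without LPS asks what the hormone analogue does to resting macrophages. All cells were grown from femur and tibia marrow of C57BL/6J mice aged 8 to 12 weeks, in medium with 10% serum and 10% L929 supernatant, which supplies the macrophage growth factor M-CSF, so every group was exposed to M-CSF. Dexamethasone, a synthetic glucocorticoid, was given at 100 nM. The labels name no vehicle for the control libraries. Nothing in them tells whether a group's 4 libraries come from different animals. The spread behind every p-value is therefore that between libraries and may be technical.

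Dexamethasone binds the glucocorticoid receptor, which waits in the cytoplasm with heat shock proteins and moves to the nucleus once bound. There it activates genes through DNA sites called glucocorticoid response elements, and it lowers inflammatory genes in part by acting on the factors that drive them, such as NF-kappaB, AP-1 and interferon regulatory factors. In macrophages glucocorticoids are known for lowering cytokines and for raising receptors that clear dead cells.

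Between 17559079 and 22788375 read pairs were assigned to genes in each of the 8 libraries. The low-count filter, applied over the whole study, kept 14427 genes. Levels are given in CPM, a gene's share of all counts after scaling of library sizes. Mitochondrially encoded genes took 0.394% to 0.517% of the counts in control libraries and 0.510% to 0.568% with dexamethasone. Replicates within each group differed by more than sampling noise, which does not tell whether they come from separate animals. Each library was counted as a sample. Control replicate 4 stood furthest from its group, with a chi-square per degree of freedom of 3.69 to 4.49 against the other controls, whose pairs gave 2.31 to 2.54. All 14 macrophage markers were measured, and their summed level was 32120 to 33930 CPM in controls and 33760 to 34950 CPM with dexamethasone. Lyz2 was the largest part of that sum, with means of 18380 and 20760 CPM. In the test described below 8 of the 14 were called higher and 6 lower, so the sum does not show that single markers were stable. B cell markers were carried by Ighm, with Ms4a1, Pax5 and Igkc at 0 in all 8 libraries. In bulk RNA, fewer cells of a type and less RNA per cell cannot be told apart.

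Dexamethasone changed the level of 7132 of the 14427 genes (49.4%) at a Benjamini-Hochberg adjusted p under 0.05 in the edgeR quasi-likelihood test. Of these, 3062 (21.2%) rose and 4070 (28.2%) fell. At 2-fold or more, 515 genes (3.57%) rose and 876 (6.07%) fell. The counts of list members given below are to be read against these shares. The 4 dexamethasone libraries lay above all 4 controls for 2805 genes (19.4%) and below them for 3804 (26.4%). The median change over all tested genes was -0.02 on the log2 scale. Of the 70 most abundant genes (mean of 1000 CPM or above) 24 rose and 35 fell, but only 2 and 1 reached 2-fold.

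**Figure D1:**
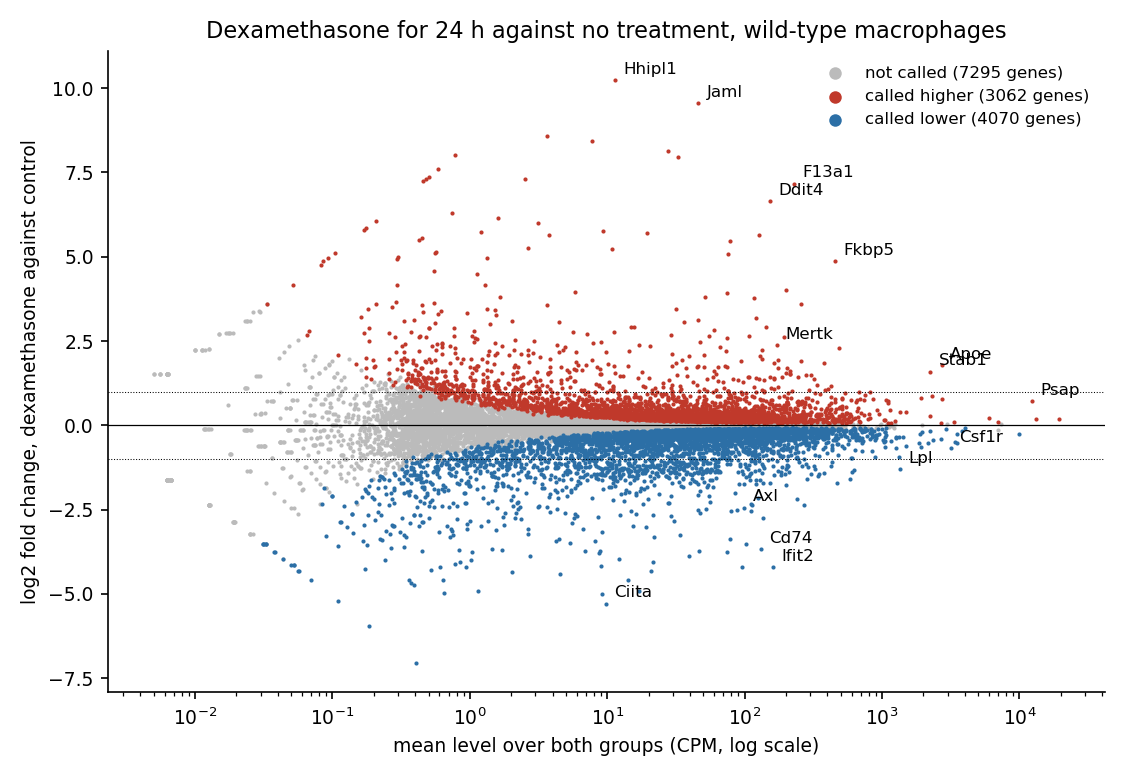
Change of each tested gene with dexamethasone (vertical axis, log2 fold change) against its mean level in the 8 libraries (horizontal axis, CPM, log scale). Each point is a gene, colours mark the 3062 genes called higher and the 4070 called lower, and dotted lines mark a change of 2-fold.

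The largest rises were of genes that control macrophages hardly expressed. Hhipl1, which codes for a Hedgehog-interacting protein-like protein, was at 0 CPM in 3 control libraries and at 0.0534 CPM in the fourth, and reached 23.3, 21.7, 24 and 22.7 CPM with dexamethasone. The groups did not come near each other: 1 read pair was counted over the 4 controls and 1994 over the 4 treated libraries, a ratio of 1785 with a 95% interval of 320 to 70523, which covers counting error only. The gene lies on chromosome 12 and was called at an adjusted p of 3.13e-32. Hif3a, a member of the hypoxia-inducible factor family that can restrain the others, showed the same shape, from 1 read pair to 637 (ratio 570, interval 102 to 22553). Its treated libraries held 6.65, 7.75, 6.41 and 8.16 CPM.

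Jaml, a junction adhesion molecule-like receptor of leukocytes, was at 0.15, 0.0501, 0 and 0.267 CPM in controls. It stood at 94.8, 94.4, 88.3 and 89.8 CPM with dexamethasone, far above every control, a log2 fold change of 9.56 ± 0.17 (SE, adjusted p = 3.61e-41). Flt3, the receptor for a cytokine of dendritic cell and stem cell growth, had 3 read pairs over the controls and 15.7, 15.2, 15.5 and 15.2 CPM with the drug. The ratio of its counts was 400 (interval 137 to 1944). Of the other 7 dendritic cell markers Bst2 made up nearly all of the signal. Bst2, also a member of the interferon list below, fell in mean from 250.3 to 97.5 CPM, opposite to Flt3. Xcr1, Clec9a, Zbtb46, Ccr7 and Siglech stayed below 1 CPM in both groups. Cd209a had 26 read pairs over the controls and 0 with dexamethasone. Whether other cells had a part in the Flt3 rise was not tested.

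Secreted proteins of acute-phase and granule type also rose from near 0. Hp (haptoglobin, which binds free haemoglobin) went from 0.201, 0.0501, 0.411 and 0.107 CPM to 57, 52.9, 59.9 and 52.4 CPM. Chil3, a chitinase-like protein used as a marker of alternatively activated mouse macrophages, went from 0.301, 0.1, 0.308 and 0.32 CPM to 66.6, 62, 71.5 and 59.3 CPM. Every treated library was above every control for both genes, by 8.13 ± 0.15 and 7.95 ± 0.16 (log2 fold change, SE). Lcn2, lipocalin that withholds iron from bacteria, rose from 2 read pairs to 437 (ratio 196, interval 53.8 to 1620). Of the 24 tested members of the acute-phase and antimicrobial list, 10 rose and 2 fell, 7 of the rises by 2-fold or more, with a median of 0.89 against -0.02 over all genes. Lyz2, lysozyme, was among the 10 with a small rise, from a mean of 18383 ± 736 to 20765 ± 333 CPM (SD, n = 4).

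Neutrophil markers did not move as 1 group, and whether neutrophils had a part in the rises above was not tested. The summed level of the 12 neutrophil markers was 68.3 to 72.5 CPM in controls and 125.6 to 134.5 CPM with dexamethasone. Of the 4 among them that passed the low-count filter, 2 were called higher and 1 lower. Nearly all of the rise came from Mmp8, neutrophil collagenase, which went from 14.1, 18.2, 13.9 and 14.7 CPM to 92.6, 96.8, 98.4 and 94.9 CPM, while Csf3r fell in mean from 53.9 to 34 CPM. S100a8, a calcium-binding protein abundant in neutrophils, had 2 read pairs over the controls and 25 with dexamethasone. S100a9 had 9 and 8, and Cxcr2 had 2 and 1. Ly6g and Retnlg were at 0 in all 8 libraries, and the group means of Mpo, Elane, Ltf, Ngp and Camp were below 0.1 CPM.

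F13a1, the A chain of coagulation factor XIII, rose from 2.91, 3.91, 2.98 and 2.72 CPM to 443, 466, 456 and 441 CPM. With a log2 fold change of 7.17 ± 0.07 (adjusted p = 1.91e-52) it was 144-fold higher, and no treated library came close to a control. Fgfr1, a fibroblast growth factor receptor, rose from a mean of 6.85 ± 1.13 to 96.5 ± 2.07 CPM, and Gda, guanine deaminase of purine breakdown, from 23 ± 0.772 to 375 ± 3.37 CPM (SD, n = 4). Cbr2, a carbonyl reductase, was 13.6-fold higher at 218 ± 8.81 CPM. Strip2, a component of a phosphatase complex, rose by 5.76 ± 0.20 on the log2 scale. Rab15 (a small GTPase of membrane traffic), Sult1a1 (a sulfotransferase) and Vipr2 (a receptor for vasoactive intestinal peptide) rose by 5.70, 3.93 and 3.95. These 3 overlap genes on the other strand, and reads were counted without strand, so the overlapping parts cannot be told apart.

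Below the level of 5 CPM, 14 genes had no count in any control and were called higher, and 17 had none with dexamethasone and were called lower. Lyve1, a hyaluronan receptor of tissue macrophages, was at 0 in 4 controls and at 1.11, 0.879, 0.851 and 0.982 CPM with dexamethasone, at least 24.8-fold higher when the controls are set to 3 counts over the group. Serpina3m, a protease inhibitor, was at least 40.9-fold higher, and Lrg1, a leucine-rich glycoprotein of the acute phase, at least 26.3-fold. Scn2b, a sodium channel subunit, was at least 23.9-fold higher. These 4 were picked after their values were seen.

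**Figure D2:**
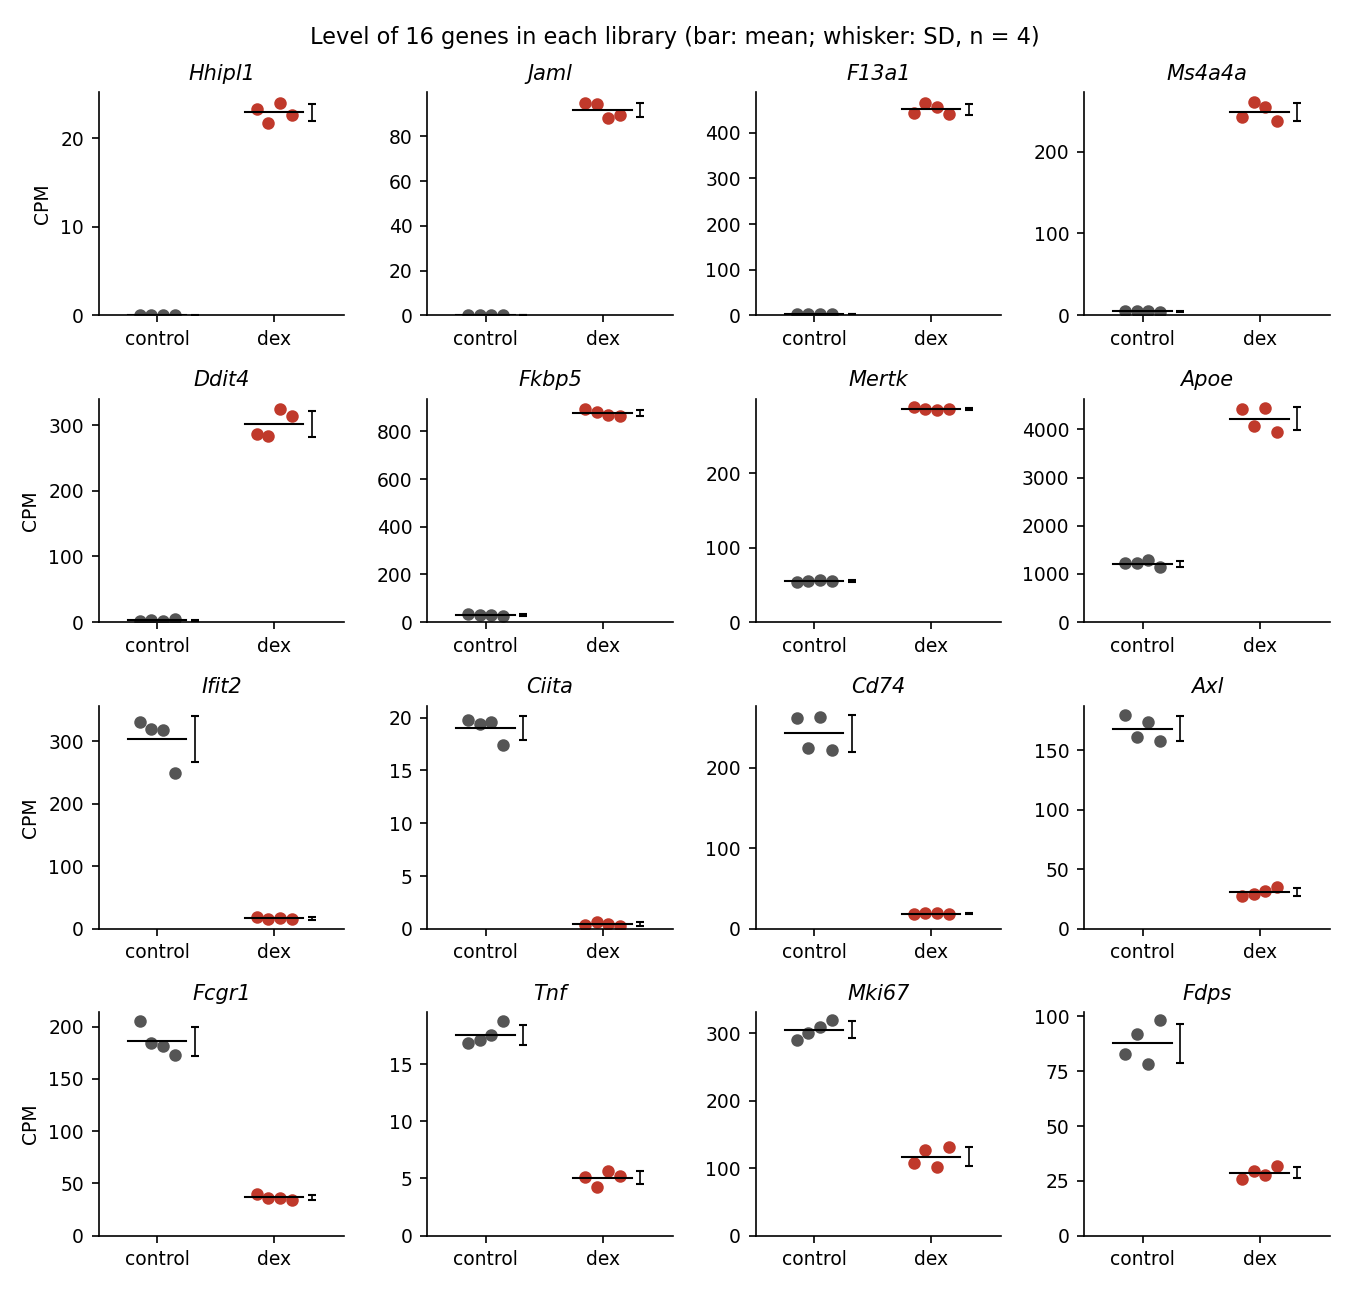
Level of 16 genes in each of the 8 libraries (vertical axes, CPM, each from 0). Points are single libraries in replicate order, controls in grey and dexamethasone in red, with the mean as a bar and the SD (n = 4) as a whisker, and in each gene the 4 treated libraries lie on one side of the 4 controls.

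Genes long known as targets of the glucocorticoid receptor were higher in majority. Of 34 tested members, 22 rose and 7 fell, 12 and 5 of them by 2-fold or more, with a median of 0.54. Fkbp5, the co-chaperone that lowers hormone binding by the receptor, went from 33.2, 30.5, 31.6 and 24.4 CPM to 893, 883, 871 and 865 CPM, 29.3-fold. Tsc22d3, which codes for the anti-inflammatory protein GILZ, went from 34.8, 36.6, 40 and 44.6 CPM to 464, 459, 493 and 476 CPM. Neither gene showed any overlap between groups (adjusted p = 2.14e-47 and 1.01e-40).

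Dusp1, a phosphatase that switches off p38 and JNK kinases, rose from 15.2, 15.1, 14 and 15 CPM to 101, 106, 104 and 110 CPM. Its span in the annotation overlaps that of Ergic1 on the other strand, whose mean was 44.8 CPM in controls and 81.3 CPM with dexamethasone. Zbtb16, a zinc finger repressor, rose 8.44-fold and Glul, glutamine synthetase, 3.59-fold, from 165 ± 2.03 to 592 ± 7.8 CPM (SD, n = 4). Other members of the list stood lower with the drug. Cdkn1c, a cyclin-dependent kinase inhibitor, fell from 13, 11.8, 14.1 and 16.2 CPM to 5.49, 4.76, 5.1 and 4.68 CPM. Tgm2 (transglutaminase), Thbs1 (thrombospondin), Rgs2 (a brake on G protein signals) and Angptl4 (an inhibitor of lipoprotein lipase) fell by 1.39, 1.35, 1.31 and 2.82 on the log2 scale. Anxa1, annexin A1, was 501 ± 29.6 CPM in controls and 485 ± 22.2 CPM with dexamethasone, and its groups overlapped (log2 fold change -0.05 ± 0.04, adjusted p = 0.397).

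The receptor gene itself was lower. Of 24 tested genes for the receptor, its chaperones, cofactors and steroid handling, 4 rose and 12 fell. Their summed level was 4238 to 4322 CPM in controls and 4344 to 4469 CPM with dexamethasone. The sum includes Fkbp5, whose own rise, from a mean of 29.9 to 878 CPM, was larger than that of the sum, so the other members together were lower. Nr3c1, the receptor gene, fell from 144, 153, 147 and 147 CPM to 111, 108, 111 and 112 CPM, a drop of 1.34-fold with no overlap. Hsp90aa1, a chaperone that holds the receptor ready for hormone, fell from 222 ± 3.11 to 130 ± 3.43 CPM (SD, n = 4).

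The promoters printed here are those of the target list that held a receptor site close to the start. RefSeq promoters of GRCm38.p6, from 250 bases before to 50 after each start, matched 10166 of the tested genes by symbol, 12942 promoters in all. The full site, AGAACA, any 3 bases and TGTTCT, reads the same on both strands and was found in 1 of them, that of Sgk1. The looser form, GNACA, any 3 bases and TGTNC, was also read on both strands and contains the full site. It was in 39 (0.301%), in 3 of 40 promoters of the target list, in 2 of 403 promoters (0.496%) of genes that rose by 2-fold or more and in 4 of 764 (0.524%) of those that fell as much. The 3 listed promoters with a match belong to Sgk1, a kinase of ion transport (1 of its 6 promoters, chr10:21993658-21993757, plus strand), to Mt1, a metallothionein (chr8:94178951-94179050, plus strand), and to Txnip, an inhibitor of thioredoxin (chr3:96557741-96557840, plus strand). Capitals mark the looser site.
Sgk1: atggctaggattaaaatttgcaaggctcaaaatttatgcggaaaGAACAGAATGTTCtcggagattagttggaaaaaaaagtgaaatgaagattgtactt
Mt1: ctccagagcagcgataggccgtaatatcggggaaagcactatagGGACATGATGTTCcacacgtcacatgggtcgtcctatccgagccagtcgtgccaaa
Txnip: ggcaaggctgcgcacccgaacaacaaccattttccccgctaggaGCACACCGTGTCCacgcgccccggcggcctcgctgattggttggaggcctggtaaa
All 3 genes rose, but by little: 0.36 ± 0.04 for Sgk1, 0.24 ± 0.05 for Mt1 and 0.28 ± 0.05 for Txnip (log2 fold change, SE). Fkbp5 and Tsc22d3 had no such letters in this window, which says nothing of sites farther away. The 2 promoters of 2-fold risers with a match were those of Slc10a6, a carrier of steroid sulfates, and Map3k6, a kinase of stress signals. Map3k6 went from 4.36, 5.51, 5.54 and 5.61 CPM to 56.9, 57.8, 58.3 and 59.1 CPM. Slc10a6 was at 0 in all controls and had 30 read pairs over the treated libraries, at least 8.95-fold higher against 3 counts over the controls.

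Genes of mTORC1 growth control, insulin signals and autophagy were more often higher than lower, 21 of 44 against 8. Ddit4 (also called REDD1), which restrains mTORC1 and is itself a receptor target, went from 2.51, 2.95, 2.52 and 4.17 CPM to 286, 284, 324 and 314 CPM, 99.7-fold. Pik3ip1, an inhibitor of PI3 kinase, went from 3.91, 4.16, 3.54 and 5.77 CPM to 146, 150, 148 and 149 CPM. Both sets of libraries were fully apart. Deptor, a direct inhibitor of mTOR, rose 3.79-fold, Inpp5d, the lipid phosphatase SHIP1, 1.94-fold and Pik3r1, the regulatory subunit of PI3 kinase, 1.63-fold.

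Among KLF, C/EBP, FoxO, EGR and NR4A transcription factors 14 of 26 rose and 5 fell. Klf9, a receptor target, went from 21.7, 24.9, 25.9 and 23.2 CPM to 216, 228, 218 and 213 CPM. Klf4, a factor of monocyte identity, rose 4.96-fold, Klf13 2.84-fold and Cebpa, a driver of myeloid genes, 2.57-fold. Egr2 was the exception at 2-fold or more, falling by 2.43 ± 0.17 on the log2 scale. Maf, a macrophage factor tied to interleukin-10 and complement genes, rose from 550 ± 21 to 922 ± 35.5 CPM (SD, n = 4). Of 21 clock genes 11 rose and 7 fell. Per1, a clock repressor and receptor target, went from 32.6, 30.9, 29 and 26.9 CPM to 185, 181, 192 and 189 CPM. Per2, Ciart and Cry1, repressors in the same feedback loop, rose by 1.89, 1.21 and 1.00 on the log2 scale, while Nr1d2, a nuclear receptor of the loop, fell by 0.80.

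Interferon-stimulated genes fell as a body in macrophages that had received no LPS. All 60 tested members of the list fell, 55 of them by 2-fold or more, against 28.2% and 6.07% of all genes, with a median of -1.62. The summed level of the 60 genes was 10016, 9601, 9526 and 8616 CPM in controls and 3766, 3554, 3667 and 3466 CPM with dexamethasone. The list was already known from earlier work on these libraries and is not independent evidence of its direction. Ifit2, which binds viral RNA and blocks its translation, went from 330, 319, 319 and 250 CPM to 19.2, 15.6, 16.7 and 15.2 CPM, 18.3-fold lower. Ifit3, a partner of the same family, went from 201, 185, 190 and 149 CPM to 11.7, 9.75, 10.7 and 7.54 CPM. In both genes control replicate 4 was the lowest of the controls and still far above every treated library.

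Rsad2 (viperin, an antiviral enzyme) fell from 157, 142, 147 and 121 CPM to 17.3, 11.8, 12.9 and 13.1 CPM. Isg15, a ubiquitin-like modifier, fell 9.53-fold and Ifi44 15.5-fold, and Cxcl10, a chemokine for T cells, fell 31.9-fold from 17.8 ± 4.05 to 0.571 ± 0.529 CPM (SD, n = 4). The weakest falls in the list were those of Slfn2 and Ifi207, of 1.13-fold and 1.15-fold. Ifit3b and Ifit1bl1 fell by 4.91 and 4.41 on the log2 scale, but they are close copies of Ifit3 and Ifit1, and the split of reads between copies is uncertain.

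The machinery that signals for interferon was lower in part. Of 26 tested receptors, kinases and factors, 4 rose and 15 fell. Irf7, the factor that amplifies type I interferon, fell from 210, 197, 193 and 164 CPM to 35.8, 32.5, 34.2 and 29.1 CPM. Stat2 and Irf9, which carry the type I interferon signal to DNA, fell by 1.46 ± 0.05 and 0.77 ± 0.04 on the log2 scale. Usp18, which shuts the same receptor down, fell by 2.59. Ifngr1, a chain of the interferon-gamma receptor, and Irf2, a factor that competes at interferon sites, rose 1.63-fold and 1.76-fold. Of 31 cytosolic sensors and inflammasome genes 17 were lower and 3 higher. Among the sensors of nucleic acid, Zbp1, Ddx58 (RIG-I), Ifih1 (MDA5) and Cgas fell 6.38-fold, 3.05-fold, 2.2-fold and 2.1-fold.

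Guanylate-binding proteins and immunity-related GTPases, which attack the vacuoles of microbes inside cells, fell in all 14 tested members, 13 by 2-fold or more. Irgm1 went from 199, 191, 188 and 172 CPM to 58.8, 53.9, 55.3 and 56 CPM. Gbp3 fell 6.33-fold and Gbp2 4.5-fold. Tgtp2 fell 13.3-fold and Gbp4 29.8-fold, both in families of close copies whose reads may be split between members. Gbp4 was at a low level, 2.23 CPM in controls and 0.0686 CPM with dexamethasone. Its fold rests on 6 read pairs over the treated libraries.

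The core of the interferon-stimulated response element, TTTC, any 2 bases and TTTC, was searched on both strands of the same promoters because interferon factors bind it. It was present in 423 of the 12942 promoters (3.27%), in 81 of 764 promoters (10.6%) of genes that fell by 2-fold or more and in 11 of 403 (2.73%) of those that rose as much. In the interferon list it was in 29 of 55 promoters (52.7%), and in the GTPase list in 8 of 9. For comparison, the AP-1 site TGANTCA was in 5.38% of all promoters, 9.43% of those of genes that rose by 2-fold or more and 9.03% of those that fell as much, and the NF-kappaB site (GGG, any 2 bases and TTTCC), both searched on both strands, was in 1.77%, 1.24% and 2.62%. A match describes the letters and is not a test of binding. The 6 promoters below, 100 bases each from RefSeq on GRCm38.p6, show it in capitals, on either strand: Ifit3 (chr19:34583345-34583444, plus), Ifit1 (chr19:34640749-34640848, plus), Isg15 (chr4:156200836-156200935, minus), Rsad2 (chr12:26456518-26456617, minus), Gbp3 (1 of its 2 promoters, chr3:142559944-142560043, plus) and Cxcl10 (chr5:92349040-92349139, minus). In Isg15 3 matches overlap and in Gbp3 2.
Ifit3: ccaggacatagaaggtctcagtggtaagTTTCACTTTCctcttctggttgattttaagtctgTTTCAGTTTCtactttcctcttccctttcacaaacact
Ifit1: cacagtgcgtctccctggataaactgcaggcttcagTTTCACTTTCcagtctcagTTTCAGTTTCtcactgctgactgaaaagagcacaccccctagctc
Isg15: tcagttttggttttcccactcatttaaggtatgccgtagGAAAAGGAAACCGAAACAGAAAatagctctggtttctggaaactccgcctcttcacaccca
Rsad2: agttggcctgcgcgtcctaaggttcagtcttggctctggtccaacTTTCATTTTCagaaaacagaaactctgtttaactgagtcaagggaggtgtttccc
Gbp3: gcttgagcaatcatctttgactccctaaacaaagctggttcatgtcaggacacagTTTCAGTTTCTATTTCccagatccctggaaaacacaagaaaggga
Cxcl10: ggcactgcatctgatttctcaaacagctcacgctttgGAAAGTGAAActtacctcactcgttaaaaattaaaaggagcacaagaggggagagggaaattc
In Ifit3 and Ifit1 the matches start 156 and 122, and 104 and 85 bases before the start of transcription.

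Antigen presentation by MHC class II fell to low levels. Of 19 tested genes of the pathway and of co-stimulation, 11 fell and 1 rose, 7 of the falls by 2-fold or more. Ciita, the master regulator of class II genes, went from 19.8, 19.4, 19.6 and 17.4 CPM to 0.403, 0.68, 0.5 and 0.312 CPM, 39.1-fold lower. It shares its position with Dexi on the other strand, which moved from 14.5 to 10.4 CPM. Cd74, the invariant chain that guides class II molecules, went from 261, 224, 262 and 222 CPM to 18, 19.6, 19.6 and 18.6 CPM. H2-Eb1, H2-Aa and H2-Ab1, the class II chains, fell by 4.59 ± 0.12, 4.33 ± 0.10 and 4.07 ± 0.10 on the log2 scale. In none of these 5 genes did the groups overlap.

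Co-stimulatory molecules were lower as well. Cd83, Cd40 and Cd86 fell 3.21-fold, 2.37-fold and 1.35-fold. March1, a ligase that removes class II and Cd86 from the surface, was the 1 member that rose, from 33.5 ± 1.79 to 60.3 ± 1.44 CPM (SD, n = 4). Class I genes with those of peptide loading and the immunoproteasome fell by less: 19 of 23 were lower and 2 higher, with a median of -0.57 and 3 falls of 2-fold or more. B2m, the light chain of class I, went from 2238, 2196, 2175 and 2126 CPM to 1580, 1492, 1546 and 1485 CPM. Tapbp, which loads peptide, fell 2.3-fold, Psme2, an activator of the immunoproteasome, 2.02-fold and Nlrc5, the class I regulator, 1.8-fold. The chains H2-D1 and H2-K1 fell 1.33-fold and 1.29-fold, with reads that may be shared among class I copies.

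Of 44 tested cytokines and growth factors 21 fell and 5 rose, and of 24 chemokines 12 fell and 3 rose. Tnf, the central inflammatory cytokine, went from 16.8, 17.1, 17.6 and 18.8 CPM to 5.09, 4.28, 5.65 and 5.18 CPM. Il1b had 26 read pairs over the controls and 1 with dexamethasone, a ratio of 29.1 (interval 4.77 to 1191), at a level below 1 CPM in every library. Pdgfa and Vegfa, growth factors for stroma and vessels, fell 4.21-fold and 2.4-fold, and Csf1, which codes for M-CSF, 3.09-fold. Igf1, the most abundant of the named growth factors per gene length (379 TPM in controls), fell 1.34-fold from 1022 ± 15.4 to 763 ± 9.27 CPM (SD, n = 4).

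Chemokines split by gene, and their summed level was higher with dexamethasone, 1317 to 1368 CPM against 1120 to 1184 CPM in controls. Cxcl16, a membrane-bound chemokine and scavenger receptor, fell from 138, 143, 140 and 142 CPM to 41.1, 40.1, 44.7 and 41.2 CPM. Ccl2, which draws monocytes, and Ccl5, which draws T cells, fell 3.13-fold and 5.27-fold. Ccl9 and Ccl6, produced by resting mouse macrophages, rose 1.37-fold and 1.95-fold. Among their receptors, Ccr2 and Cx3cr1 fell 3.12-fold and 3.33-fold, whereas Ccr1 rose from 1.75, 1.8, 1.85 and 3.26 CPM to 8.32, 9.67, 9.46 and 11.2 CPM and Cmklr1, the chemerin receptor, rose 8.44-fold.

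Brakes on inflammation did not move as 1 group: 12 of 35 rose and 11 fell, against 21.2% and 28.2% of all genes. Apart from Tsc22d3, Trib1 and Trib2, pseudokinases that direct proteins to breakdown, rose 3.33-fold and 3.5-fold, and Zc3h12a, which cuts cytokine mRNA, rose 1.89-fold. Nfkbia, the inhibitor that holds NF-kappaB in the cytoplasm, rose from 64.6, 68.1, 75.9 and 68.9 CPM to 106, 96.8, 115 and 109 CPM. Zfp36, which destabilises cytokine mRNA, rose 1.26-fold. Il1rn, the antagonist of the interleukin-1 receptor, instead fell from 10.1, 9.22, 9.45 and 9.99 CPM to 1.41, 0.799, 1.6 and 1.43 CPM. Socs1 (a brake on JAK kinases), Tnip3 (a brake on NF-kappaB) and Il10 fell 5.22-fold, 4.26-fold and 2.66-fold.

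Cytokine receptors changed in both directions, 22 of 53 higher and 16 lower, against 21.2% and 28.2% of all genes. The falls were thus near the share of all genes. Lifr, the receptor of leukaemia inhibitory factor, went from 39, 33.6, 33.7 and 27.8 CPM to 270, 255, 255 and 235 CPM. Il15ra rose 3.41-fold. Kit, the stem cell factor receptor, fell from 13.6, 13.9, 14.9 and 16.9 CPM to 1.11, 1.28, 1.8 and 1.29 CPM, and Il21r fell 5.84-fold. Csf1r, the M-CSF receptor on which these cells depend, fell from 4045, 3900, 4063 and 3625 CPM to 2480, 2429, 2503 and 2407 CPM. Kit is also a marker of mast cells, of whose other markers Fcer1a, Mcpt4, Mcpt8 and Ms4a2 were at 0 in all 8 libraries. Cpa3, a further mast cell marker, fell with Kit, from 62 read pairs over the controls to 9 with dexamethasone. Whether mast cells had a part in the fall of Kit was not tested.

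Receptors for dead cells and modified lipoproteins changed in both directions. Of 30 tested scavenger and efferocytosis genes 11 rose and 11 fell. Mertk, a kinase receptor that takes up apoptotic cells, went from 53.4, 55.6, 56.7 and 55.6 CPM to 288, 286, 285 and 286 CPM, 5.17-fold higher. Axl, its close relative, went the other way, from 180, 161, 174 and 158 CPM to 27.3, 29.7, 32 and 35.1 CPM, 5.42-fold lower. Gas6, the ligand that bridges both receptors to the dead cell, fell 1.56-fold.

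Stab1, a scavenger receptor of tissue macrophages, went from 1093, 1136, 1142 and 1092 CPM to 3309, 3398, 3397 and 3354 CPM, and Msr1, scavenger receptor A, rose 3.25-fold. Cd163, which takes up haptoglobin bound to haemoglobin, rose 2.42-fold and Mrc1, the mannose receptor, 1.62-fold. Itgb3, an integrin chain for vitronectin, and Clec7a (dectin-1, a receptor for fungal glucan) fell 2.93-fold and 2.68-fold.

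Fc receptors and complement also separated by gene, with 11 of 27 higher and 7 lower. Fcrls, an Fc receptor-like protein, fell from 192, 191, 192 and 180 CPM to 16.8, 15.5, 17.7 and 16.5 CPM, and Fcgr1, the high-affinity IgG receptor, fell 5.09-fold. Fcgr3, a low-affinity activating receptor, rose 1.63-fold. C1qa, C1qb and C1qc, the chains of the first complement component, rose by 1.03 ± 0.05, 0.80 ± 0.04 and 0.66 ± 0.04 on the log2 scale. C3 fell 3.24-fold.

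The Ms4a family, membrane proteins clustered on chromosome 19 from 11044835 to 11582213 in the coordinates of the deposited table, was singled out after its values were seen. Of 9 tested members 7 rose, 6 by 2-fold or more, and 2 fell. Ms4a4a went from 5.21, 5.81, 5.03 and 3.58 CPM to 243, 260, 255 and 237 CPM, 50.4-fold. Ms4a6b, Ms4a6c and Ms4a6d rose 3.79-fold, 3.04-fold and 2.85-fold, and Ms4a4b 3.19-fold. Ms4a8a went from 3 read pairs to 204 (ratio 60.9, interval 20.5 to 298). Ms4a7 and Ms4a14 fell 1.63-fold and 2.19-fold. Ms4a4c rose 1.21-fold (adjusted p = 0.0144) with overlapping groups, and it was no longer called without control replicate 4 or without treated replicate 1, where its log2 fold change was 0.13 and 0.22 in place of 0.27. Close copies in the family may share reads.

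Of 22 Toll-like receptor genes and adaptors, 8 rose and 10 fell. Cd14, which hands LPS to its receptor, went from 831, 777, 797 and 811 CPM to 434, 391, 416 and 416 CPM. Tlr4 itself was 196 ± 8.08 CPM in controls and 189 ± 9.28 CPM with dexamethasone (adjusted p = 0.348). Tlr9, a sensor of bacterial DNA, and Cd180, a relative of Tlr4, fell 2.21-fold and 2.19-fold. Tlr5, the flagellin receptor, rose 3.09-fold and Tlr13, a sensor of bacterial ribosomal RNA, 1.73-fold.

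Matrix, protease and coagulation genes were higher in larger number, 19 of 39 against 8 lower, with 12 rises of 2-fold or more. Besides F13a1 and Mmp8, Thbd (thrombomodulin, an anticoagulant receptor) went from 11.3, 11.1, 10.1 and 11.8 CPM to 48.3, 48.4, 47 and 48.7 CPM. F10, coagulation factor X, rose 4.51-fold, Ecm1, an extracellular matrix protein, 3.9-fold, Adamtsl4 5.55-fold and Mmp19 2.28-fold. Mmp12, macrophage elastase, fell 4.86-fold from 83.7, 72.8, 92.3 and 125 CPM to 17.7, 16.7, 18.6 and 23.7 CPM, and Plau, urokinase, fell 2.12-fold. Procr, the protein C receptor that works with thrombomodulin, fell 2.38-fold. Of adhesion genes, Tns1, which links integrins to actin, rose 4.91-fold and Sdc3, a syndecan, fell 3-fold.

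**Figure D3:**
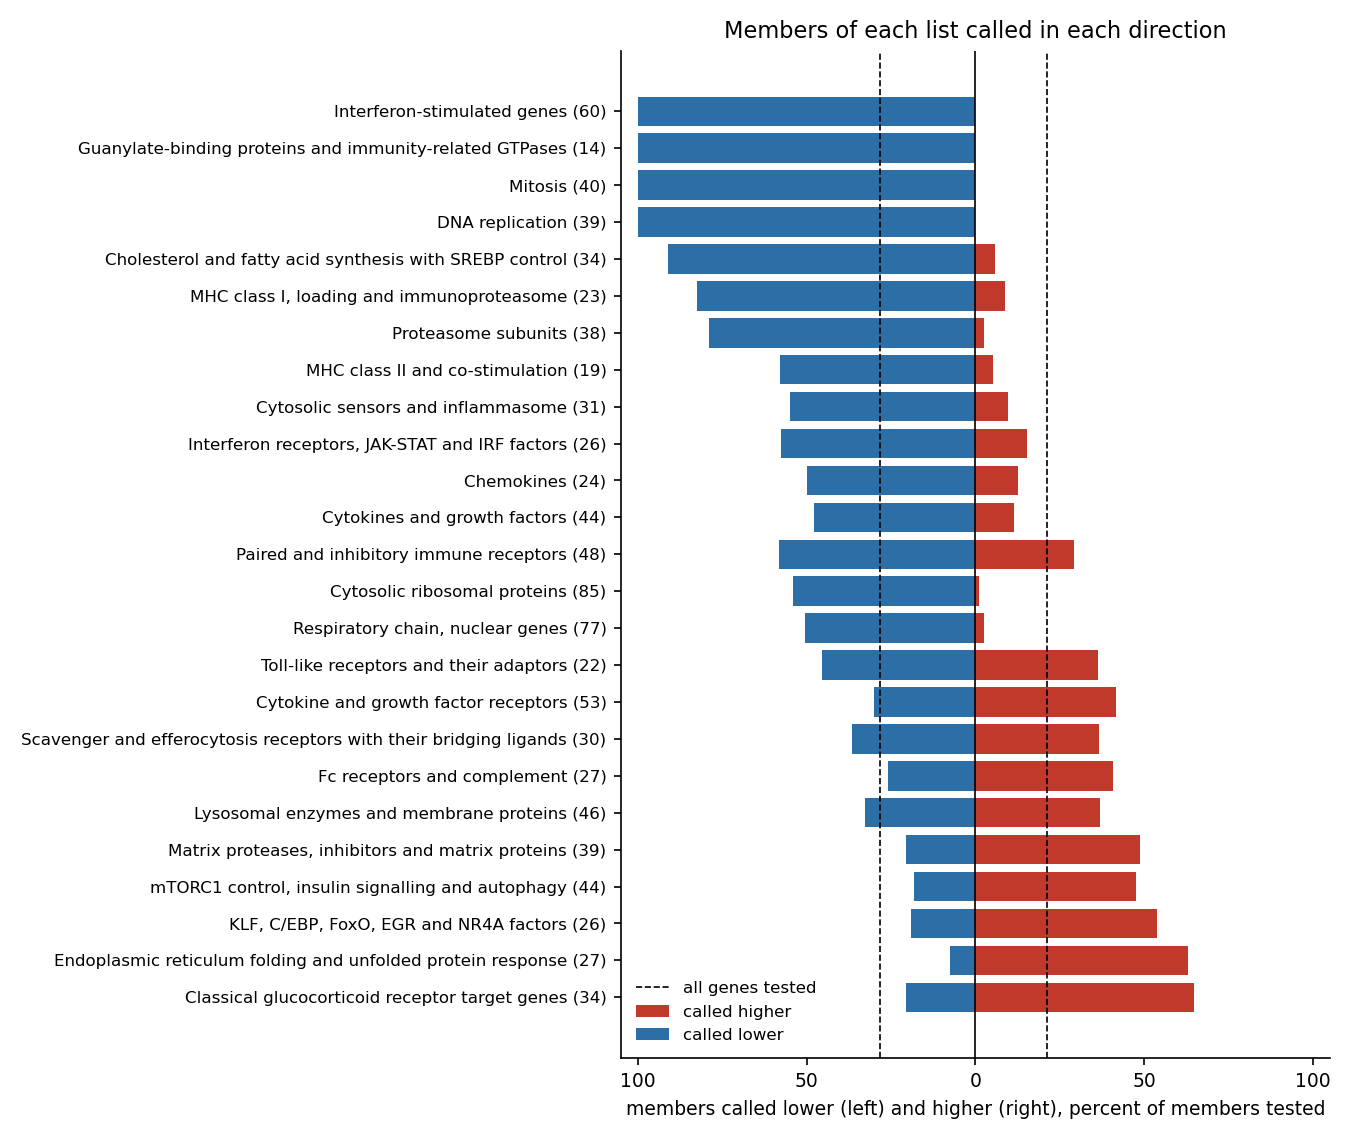
Members of selected gene lists called higher or lower with dexamethasone, as percent of the members tested. Bars to the right are members called higher and bars to the left members called lower, list sizes stand in brackets, and the dashed lines give the same over all 14427 tested genes, 21.2% higher and 28.2% lower.

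Cholesterol handling changed on several sides. Of 34 genes of cholesterol and fatty acid synthesis 31 fell and 2 rose, with a median of -0.76. The 34 genes summed to 2579, 2699, 2548 and 2759 CPM in controls and 1640, 1657, 1582 and 1707 CPM with dexamethasone. Scd1 and Fads2, desaturases of fatty acids, fell 7.15-fold and 5.7-fold. Fdps, of the mevalonate pathway, went from 82.7, 91.8, 78.2 and 98.3 CPM to 25.7, 29.5, 27.8 and 31.6 CPM. Srebf2, the factor that controls sterol synthesis, fell 1.64-fold. Elovl5, a fatty acid elongase, rose 2.58-fold.

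Efflux genes did not follow 1 direction. Apoe, the lipoprotein that carries cholesterol away, went from 1221, 1218, 1290 and 1137 CPM to 4414, 4080, 4448 and 3954 CPM, 3.47-fold higher. Abca1 and Abcg1, the transporters that load lipoproteins, fell 2.39-fold and 1.64-fold, and Ch25h, which makes an oxysterol, fell 6.66-fold. All 16 tested genes of the LXR-linked efflux list were called, 5 higher and 11 lower. Lpl, lipoprotein lipase, fell from 1839, 1847, 1818 and 2149 CPM to 782, 742, 732 and 879 CPM, and Lipa, the lysosomal lipase, fell 1.9-fold. Fabp4, a fatty acid carrier, rose 4.27-fold and Pnpla2, the lipase of stored fat, 2.65-fold.

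Lipid mediators, redox, iron and amino acid genes held further large changes. Pla2g7, which inactivates platelet-activating factor, rose 6.17-fold to 334 ± 5.93 CPM (SD, n = 4), and Ptger2, a prostaglandin E2 receptor, rose 6.85-fold. Hpgd, which breaks prostaglandins down, fell 2.67-fold. Gpx3, a secreted glutathione peroxidase, and Hmox1, heme oxygenase, rose 4.69-fold and 1.72-fold, and Slc40a1, the iron exporter, fell 2.22-fold. Mthfd2 and Psat1, of the folate and serine pathways, fell 3.95-fold and 2.55-fold, and Slc7a2, an arginine transporter, rose 3.48-fold. Acod1, the gene deleted in the other genotype, went from 11.5, 9.62, 10 and 8.44 CPM to 1.01, 1.24, 0.601 and 0.625 CPM, 11.2-fold lower. Genes of glucose uptake, glycolysis and lactate export fell in 14 of 28 and rose in 8, with Aldoc, an aldolase, 4.23-fold and Pkm, pyruvate kinase, 1.56-fold lower.

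Proliferation genes fell throughout. All 40 tested mitosis genes and all 39 DNA replication genes were lower, with medians of -1.30 and -1.0, and the fall reached 2-fold in 39 and 20 of them. Mitosis genes summed to 2480, 2591, 2465 and 2682 CPM in controls and 986, 1098, 898.8 and 1117 CPM with dexamethasone. Mki67, a protein of dividing cells, went from 290, 301, 310 and 320 CPM to 109, 128, 101 and 131 CPM. Top2a and Ccnb1 fell 2.72-fold and 2.46-fold, Mcm5, part of the replication helicase, 2.78-fold and Uhrf1, which maintains DNA methylation, 3.19-fold. Ccnd1 and Cdk4, which start the cycle, fell 1.77-fold and 1.34-fold. Trp53inp1, a stress-induced protein of the p53 network, rose 2.64-fold.

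Several housekeeping groups were lower by small amounts. Cytosolic ribosomal protein genes were lower in 46 of 85 and higher in 1, with a median of -0.12, proteasome subunits lower in 30 of 38 and higher in 1 (median -0.17), and nuclear genes of the respiratory chain lower in 39 of 77 and higher in 2 (median -0.14). Without scaling of library sizes 39 of the 85 ribosomal protein genes were still called lower. In KO libraries 16 of the 85 fell and 6 rose, with a median of -0.02. Genes of folding in the endoplasmic reticulum went up, 17 of 27 against 2 lower, with Pdia6 1.57-fold, Herpud1 1.46-fold and Hspa5, the chaperone BiP, 1.27-fold higher.

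In absolute terms the largest gain in transcript share was that of Psap, which makes the activators of lysosomal lipid breakdown. It went from 9222, 9487, 9523 and 9277 CPM to 15602, 15075, 15774 and 14983 CPM, a rise of 1.64-fold. Lysosome genes as a list were mixed, 17 of 46 higher and 15 lower, none by 2-fold. Ctsl, a cathepsin, and Galc, a galactolipid hydrolase, rose 1.68-fold and 1.74-fold, and Ctsb 1.14-fold. Selenop, a selenium carrier, and Serinc3, a membrane protein, rose 1.84-fold and 1.73-fold. Among the largest losses were Fth1, ferritin heavy chain, from 10874 ± 116 to 9038 ± 214 CPM, Lgals3, galectin-3, 1.44-fold, Actb, beta-actin, 1.41-fold, and Sirpa, the receptor of the CD47 signal that restrains uptake, 1.44-fold. Gpr162, an orphan receptor, fell 13.3-fold.

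The same treatment was given to libraries labelled Acod1 KO, 4 with dexamethasone and 4 without, which share no library with the wild type. Reads of Acod1 itself were still counted there, 5.82 ± 0.747 CPM in controls against 9.89 ± 1.26 CPM in wild type (SD, n = 4). Since the deleted part of the gene is not named, this level does not check the genotype. All wild-type libraries came from sequencing lane 3, as did 6 of these 8. In the KO libraries 3022 genes (20.9%) rose and 3982 (27.6%) fell. By 2-fold or more 498 (3.45%) rose and 854 (5.92%) fell. The acute-phase and antimicrobial list had 10 members higher and 2 lower in KO as in wild type, with a median of 0.46 in place of 0.89. Of the 515 genes 2-fold higher in wild type, 428 also rose in KO and none fell, and 377 did so by 2-fold or more, 73.2% of the wild-type list and 75.7% of the KO list. Of the 876 that were 2-fold lower, 795 also fell and none rose, and 706 fell by 2-fold or more, 80.6% and 82.7% of the lists. The test of the difference between the effects called no gene by edgeR or by DESeq2, with 617 and 635 genes at an unadjusted p under 0.05. That does not show that the effects are equal, and without wild-type control replicate 4 the edgeR test called 3 genes, Ifi213, Slc5a3 and Ifit2, each with a smaller fall in KO. Acod1 fell by 3.48 in wild type and by 3.54 in KO on the log2 scale, and Ifit2 fell by 4.20 and 3.78. Hhipl1 had 1 read pair over the wild-type controls and 0 over the KO controls, so its log2 fold changes are not compared. With dexamethasone it stood at 22.9 ± 0.988 CPM in wild type and 21.6 ± 0.935 CPM in KO (SD, n = 4).

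When LPS was present in both arms the effect of dexamethasone on many of the same genes differed. That comparison, 4 wild-type libraries with LPS and dexamethasone against 4 with LPS alone, shares no library with the one above, and LPS was given at 100 ng with no volume stated. It called 4997 genes (34.6%) higher and 4981 (34.5%) lower. The difference between the effects was called for 8713 genes (60.4%). Of the 515 genes that rose 2-fold without LPS, 263 also rose with it, 95 fell and 157 were not called, and their median was 0.75 in place of 1.58. Of the 876 that fell, 408 also fell, 282 rose and 186 were not called. By the same 2-fold rule the shared genes were 211, or 41% of the higher list and 14.3% of the 1472 (10.2% of all) higher with LPS, and 309, or 35.3% and 17.8% of the 1732 (12.0% of all) lower with LPS.

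**Figure D4:**
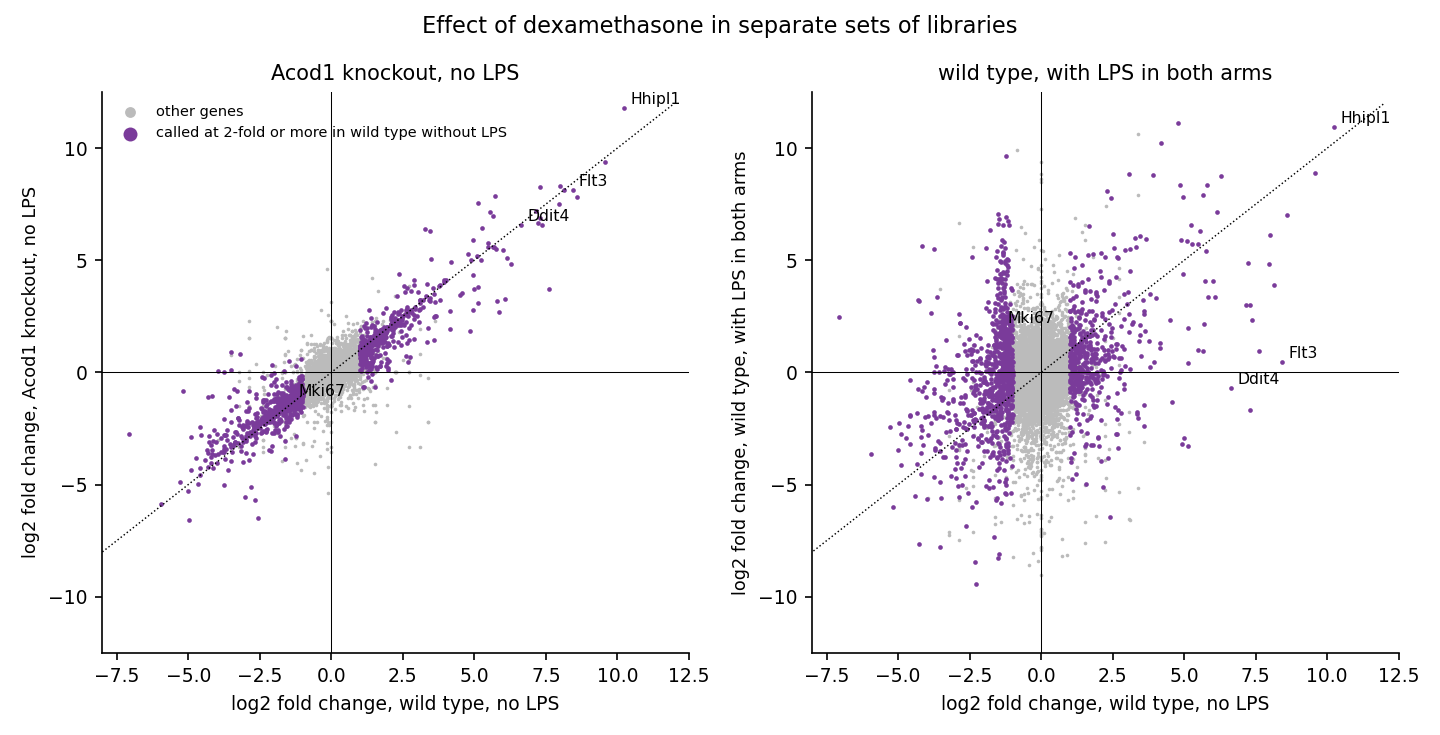
Effect of dexamethasone on each tested gene (log2 fold change) in wild type without LPS (horizontal axis of both panels) against that in Acod1 KO libraries (left) and in wild type with LPS in both arms (right). Coloured points are the genes called at 2-fold or more in wild type without LPS, the dotted line marks equal effects, and points leave that line far more in the right panel, with Mki67 in the quadrant of opposite signs.

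Ddit4 lost its rise. It went up by 6.64 on the log2 scale without LPS and fell by 0.70 with it, a difference of -7.34 ± 0.14 (SE). With LPS alone it stood at 46.8 ± 9.82 CPM and with both at 28.9 ± 2.95 CPM (SD, n = 4). Flt3 rose by 8.43 without LPS and by 0.46, not called, with it. F13a1, Chil3 and Hp rose in both settings, by 7.17, 7.95 and 8.13 without LPS and by 3.00, 4.85 and 3.88 with it. Hp was already high with LPS alone, at 518 ± 13.5 CPM, and reached 7643 ± 55.3 CPM with both (SD, n = 4). Its gain in CPM was therefore far larger with LPS than without it.

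Proliferation and sterol genes turned over. All 40 mitosis genes fell without LPS and all 40 rose with it, with medians of -1.30 and 2.52, and 33 of 39 replication genes rose with LPS present. Mki67 was 306 ± 12.9 CPM in controls, 117 ± 14.4 CPM with dexamethasone, 44.4 ± 9.25 CPM with LPS and 181 ± 2.32 CPM with both (SD, n = 4). Of 34 sterol and fatty acid genes 31 fell without LPS and 30 rose with it. Interferon genes kept their direction in most cases, 60 of 60 lower without LPS and 56 of 60 lower with it, with medians of -1.62 and -1.04. The difference was called for 52 of them, against 60.4% of all genes. It went toward a weaker fall with LPS for 46 and toward a stronger one for 6. Over all 14427 genes it was called upward for 4617 and downward for 4096. Of chemokines, 21 of 24 fell with it against 12 without it, with medians of -3.31 and -1.32. The difference itself was called for 14 of the 24 chemokines, 10 of them toward a stronger fall (28.4% of all genes in that direction). Mertk and Cd163 rose in both settings, and Stab1 and Msr1 rose without LPS and fell with it.

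**Figure D5:**
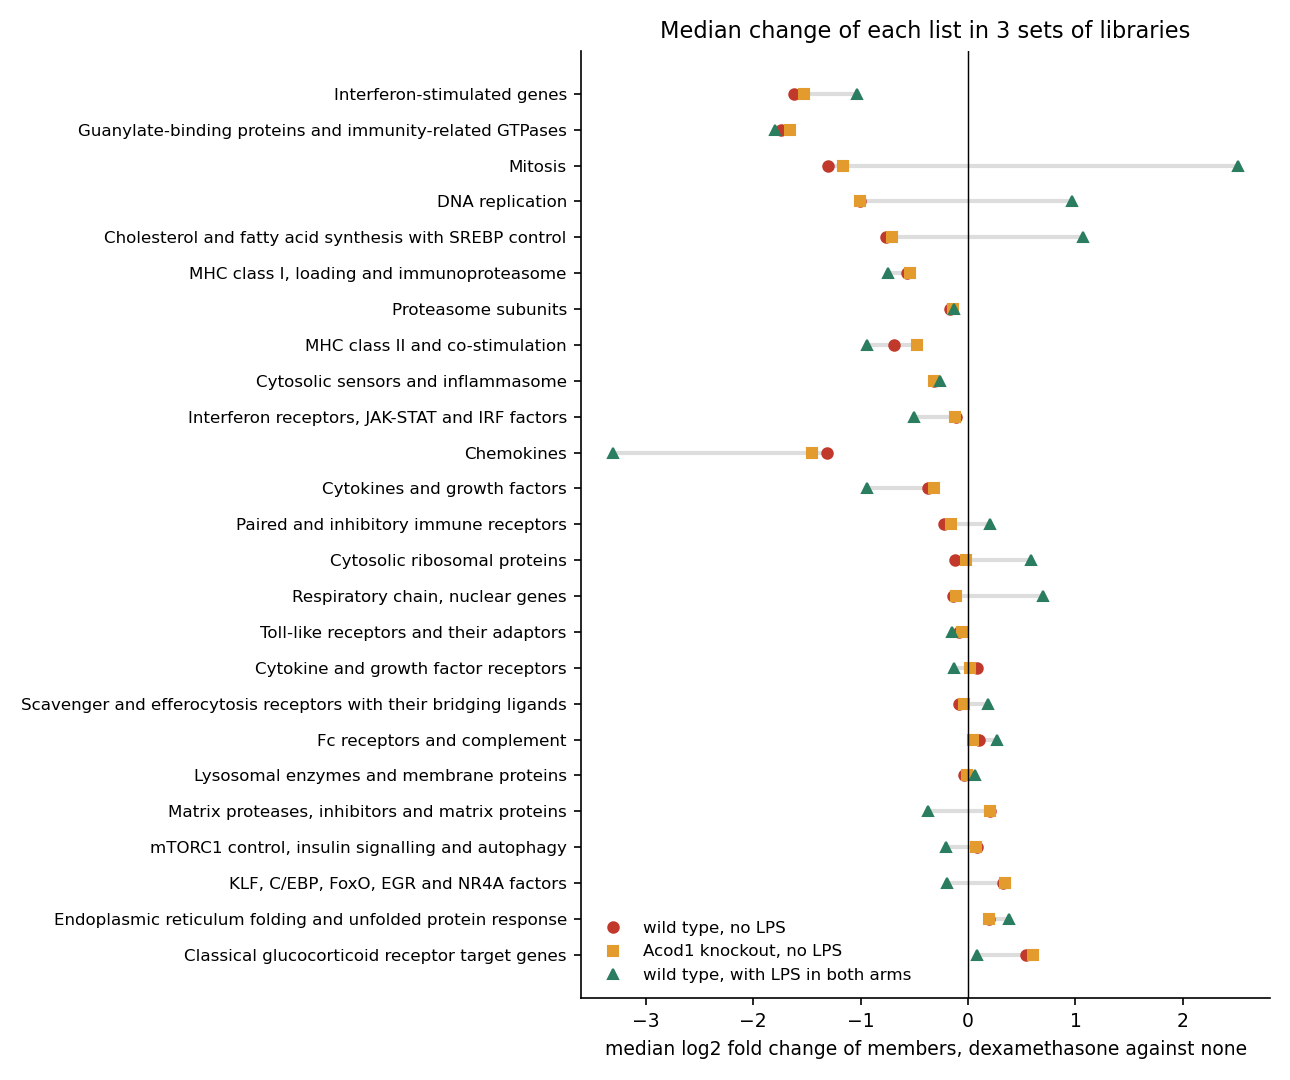
Median log2 fold change of the tested members of each list with dexamethasone, in wild type without LPS (circles), in Acod1 KO libraries (squares) and in wild type with LPS in both arms (triangles). Circles and squares lie close together in the lists shown, farthest apart for MHC class II (-0.69 and -0.48). The triangles of mitosis, DNA replication and sterol lists lie on the other side of 0. So do those of other lists with smaller shifts, such as nuclear respiratory chain (-0.14 to 0.70), ribosomal protein (-0.12 to 0.59) and matrix and protease genes (0.21 to -0.37).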

How the data were processed

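Messenger RNA was measured in 8 groups of 4 libraries, grouped by their labels. Per the file headers the authors counted read pairs over exons with featureCounts 2.0.0, without strand, on the GENCODE vM32 annotation. They deposited raw counts for 56953 genes with exon lengths and gene positions. STAR, whose version is not stated, and the builds GRCm38 and mm10 are named in the submitters' processing notes. Gene symbols came from the reference annotation, and 4924 identifiers (0.846% of counts) found none.

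Counts were analysed with edgeR 4.0.16 in R 4.3.3, with its default low-count filter, TMM scaling, 1 quasi-likelihood fit over all 8 groups, two-sided tests and Benjamini-Hochberg adjustment over 14427 genes. Genes with an adjusted p under 0.05 were called. SE was derived from the F statistic, and TPM used the deposited exon length. Library totals over all 32 libraries ran from 17559079 to 25049200 counts. Ratios of genes with 1 to 3 counts in a group have exact binomial 95% intervals, and a group at 0 was set to 3 counts in all. The fits were tested on simulated data. DESeq2 1.42.0 was an alternative. Promoters are RefSeq's on GRCm38.p6, a build not mixed with the table's positions.

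The members, tests and 52 gene lists were chosen with earlier results of these data known. Genes were named as list or marker members with a large change or high level. Others were among the 20 largest rises or the 20 largest falls from 5 CPM up without overlap. Further ones were among the 10 largest gains or losses in CPM, or were named as stated beside them. Some results are not reported here.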

Additional observations from a re-analysis of the deposited data

Results flagged for a closer look

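A library was set apart where its gap to the nearest other library of its group took up most of the range of the 4 (Dixon's ratio, 95% level). Of 458 groups of 4 examined for the named genes 29 stood out, and chance flags about 1 in 20 groups. Control replicate 4 accounted for 11 of them. It was the lowest control for Ifit2 (ratio 0.851), Ciita (0.845), Fcrls (0.917) and Ms4a6b (0.836) and the highest for Ccr1 (0.938), C1qb (0.930), Lpl (0.914), Ptger2 (0.855), Uhrf1 (0.872), Hhipl1 and Hif3a. For Hhipl1 and Hif3a, and for Flt3 in control replicate 1, Ms4a8a in control replicate 2 and Il1b in treated replicate 1, the ratio was 1.000 because all other libraries of the group held no count.

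Other libraries stood apart for single genes. Control replicate 2 was the highest for Mt1 (0.883) and the lowest for Chil3 (0.911) and Mthfd2 (0.882), and control replicate 1 was the highest for Cgas (0.842) and the lowest for Map3k6 (0.921). With dexamethasone, replicate 1 was the highest for Cebpa (0.891), Cxcl10 (0.901) and Slfn2 (0.902), replicate 2 for Irf2 (0.860) and replicate 3 for Slc40a1 (0.884) and Slc28a2 (0.856). Replicate 4 was the highest for Gbp4 (0.889), Psme2 (0.842) and Enpp1 (0.905) and the lowest for Vegfa (0.859).

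The effect of dexamethasone differed with against without LPS for 8713 genes by the edgeR test of the difference. The genes given here were already named above and were not chosen as the largest differences. On the log2 scale the difference of effect was -7.97 for Flt3, -7.34 for Ddit4, -4.29 for Lcn2, -4.24 for Hp, -4.17 for F13a1 and -3.10 for Chil3. Of these 6, Ddit4 fell with LPS, Flt3 was not called there and the other 4 rose by less on the log2 scale than without it. For Hp and Lcn2 the smaller log2 rise started from a far higher level. Lcn2 went from 0.0259 to 5.03 CPM without LPS and from 1064 to 8612 CPM with it. It was 3.41 for both Mki67 and Fdps, which fell without LPS and rose with it.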

How the results depend on the processing

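Other settings tried were size factors by RLE or none at all, no low-count filter, DESeq2, a stricter adjusted p of 0.01, a model of only the groups in the contrast, a replicate block, and each library left out once. Under all of them the numbers of genes higher and lower with dexamethasone stayed within 1.5 times of 3062 and 4070. They were 2391 and 3420 at the stricter p, 3503 and 3639 without normalization, and 3470 and 3716 in the model of 2 groups, where 12844 genes were tested. Leaving out a library gave 2850 to 2915 higher and 3798 to 3943 lower. With the replicate block the counts were 3068 and 4077. Same-numbered control and treated libraries had correlations of 0.00786 to 0.0596 in their deviations from the group means, not every library correlated best with its own number, and the numbers were not taken as pairs. Of 229 named genes, 228 kept direction and call in every setting that tested them, and Il1b, S100a8 and Slc10a6 were not tested in the model of 2 groups. Ms4a4c was the exception, not called at the stricter p or without control replicate 4 or treated replicate 1. The difference between KO and wild type, where no gene was called, gave 6 genes without the low-count filter (Ifi213, Usp18, Slc5a3, Ifit2, Rpl39 and 1 without a symbol) and 1 in the model of only its groups (Rpl39). With single libraries left out it gave 0 to 3, the 3 without wild-type control replicate 4, and 0 to 1 at 2-fold or more (Ifi213). The cause was not tested. Of the list counts 17 moved by over 1.5 times and 1543 did not. In lists described above, the interferon machinery had 7 members higher without normalization, the clock and mTORC1 lists had 4 and 5 lower at the stricter p, and the class II list had 2 or 3 higher in 4 settings, among them 2 without treated replicate 1. A single read pair was worth about 0.05 CPM, so levels near 0 rest on few counts.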

Other observations

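Amino acid supply and stress response genes were more often lower than higher with dexamethasone, 22 of 38 against 7, with a median log2 fold change of -0.35. Slc7a5, a carrier of large neutral amino acids, went from 9.38, 9.37, 9.24 and 8.76 CPM to 2.32, 2.36, 2.85 and 2.68 CPM, with no overlap between groups. Slc6a12, a betaine carrier, fell 2.6-fold. In the list of pyruvate entry and the TCA cycle 18 of 41 fell and 5 rose. Besides Acod1, Me1, malic enzyme, fell 2.77-fold, and Pdk2, a kinase that slows pyruvate entry, rose 1.81-fold. Of 25 genes of purinergic and adenosine signalling 13 fell and 5 rose. Slc28a2, a nucleoside carrier, rose 3.34-fold and Enpp1, which cleaves extracellular nucleotides, 2.01-fold, while P2ry1, an ADP receptor, fell 1.82-fold.

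Of 26 Bcl2 family and apoptosis genes 10 rose and 6 fell, against 21.2% and 28.2% of all genes. Bcl2l1, which codes for the survival protein Bcl-xL, went from 188, 189, 195 and 198 CPM to 310, 294, 309 and 321 CPM, and Birc3, an inhibitor of apoptosis, from 49.1, 51.6, 51.7 and 48.8 CPM to 109, 101, 101 and 94.8 CPM. Pmaip1 (Noxa, a death-promoting member) fell 1.58-fold. Adhesion genes changed in both directions, 14 of 41 higher and 15 lower, and Sdc1, a syndecan, fell 4.01-fold. Of 11 respiratory chain genes encoded in the mitochondrion 5 rose and none fell, with a median of 0.28. Among them mt-Nd5, a subunit of complex I, went from 348, 316, 329 and 431 CPM to 488, 473, 510 and 468 CPM, and mt-Co1, of complex IV, rose 1.21-fold with overlapping groups. In both genes control replicate 4 was the highest control.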
